A study of Mus musculus with 6 samples.

Results

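The histone methylation and Polycomb regulators are the genes that add, remove or read methyl groups on histones, together with the arginine methyltransferases. They were taken as every probe set annotated to a single gene symbol that begins with one of a set of family names, among them Kmt2, Kmt5, Kdm, Setd, Ezh, Cbx, Pcgf, Phc and Prmt. This gave 114 of the 22626 probe sets tested and 59 of 12393 genes. One of them, Nsdhl, an enzyme of cholesterol synthesis, matched only by its first letters. Its log2 fold change was 0.10 (adjusted p = 0.191 by limma), and it is left out of all counts below, which cover 113 probe sets of 58 genes. More than 1 probe set was present for 34 of these genes, and Suz12 had the most, with 6.

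RNA was measured on 3 arrays from HDAC11-/- and 3 from WT regulatory T cells (Tregs), the CD4+CD25+ cells that restrain other T cells. The HDAC11-/- cells came from mice with a floxed Hdac11 gene and Cre driven by Foxp3, the transcription factor that defines Tregs, and the WT cells from C57BL/6 mice with neither allele, so the loss of Hdac11 and the presence of Cre cannot be told apart. The methods give an age of 6 to 8 weeks for mice whose age is not stated otherwise. Both genotypes were isolated with magnetic beads, which enrich cells without making them pure, and each array is an independent sample, though whether each came from 1 mouse is not stated, so the p-values reflect the spread among these samples alone. Values are log2 RMA values and fold changes are HDAC11-/- over WT.

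Histone methylation carries different messages at different residues. Methylation of H3K4 by the KMT2 and SETD1 enzymes accompanies active genes and enhancers, whereas methylation of H3K27 by Polycomb repressive complex 2 (PRC2) and ubiquitylation of H2A by Polycomb repressive complex 1 (PRC1) keep genes silent, and methylation of H3K9 and H4K20 marks compact chromatin. In Tregs, the PRC2 enzyme Ezh2 is known to be induced on activation and to help maintain Treg identity.

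Arrays of the same genotype correlated at 0.998 to 0.999 in HDAC11-/- and at 0.997 in WT, and arrays of different genotypes at 0.985 to 0.988. The brightest of 2 Hdac11 probe sets averaged 6.29 in HDAC11-/- and 6.40 in WT (log2 fold change -0.12, adjusted p = 0.222 by limma), and the Foxp3 probe set was no brighter than bacterial controls in both genotypes, so neither transcript checks the labels here. Of 24 cell proliferation genes, 23 were measured and 21 were called higher in HDAC11-/- by their brightest probe set, with 1 (Tyms) called lower. Their mean level was 8.54 to 8.60 on HDAC11-/- arrays and 6.85 to 6.91 on WT arrays. Of 6 measured B cell markers 4 were called lower, with a mean level of 6.18 to 6.30 in HDAC11-/- and 7.00 to 7.08 in WT, while none of 7 T cell markers was called. Summed linear levels of the B cell markers were 737 to 757 in HDAC11-/- and 1155 to 1218 in WT, and Pax5, their defining factor, lay within the bacterial control range in both. Of 8 probe sets for 6 macrophage markers, 3 were called higher and none lower, with a mean level over the genes of 5.37 to 5.58 in HDAC11-/- and 5.24 to 5.28 in WT, and 4 of the 6 genes within the bacterial control range in WT. Of 5 measured CD8 T and NK cell markers 1, Ncr1, was called lower, at -1.04 (adjusted p = 7.1e-05 by limma). At an adjusted p under 0.05 alone, 1 of these 5 was higher and 2 were lower. Their summed linear levels overlapped, at 1212 to 1341 in HDAC11-/- and 1257 to 1298 in WT. The part of dividing cells and of other cell types in the results below was not tested, and in bulk RNA fewer cells of a type and less RNA per cell cannot be told apart. The cre hybridisation controls averaged 13.79 in HDAC11-/- and 14.27 in WT, a difference of -0.48. On a scale that held them equal every log2 fold change below would be higher by that amount.

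Changes among the regulators were mostly small, and more of them were towards lower levels in HDAC11-/-. A probe set was called at an adjusted p under 0.05 over the whole array with at least a 1.5-fold difference (limma). By this rule 4 of 113 probe sets rose (3.54%, against 3.87% of all probe sets) and 12 fell (10.6%, against 5.03%). By the adjusted p alone 23 were higher (20.4%, against 23.2% of all), 40 were lower (35.4%, against 22.4%) and 50 passed in neither direction. When each gene was represented by its brightest probe set, 2 of 58 genes rose (3.45%, against 3.46% of all genes) and 3 fell (5.17%, against 3.72%), with a median log2 fold change of -0.07 over the 58 genes and -0.04 over all genes. Most of the lower calls lay in dimmer probe sets. Brightness was averaged over all 6 arrays, so a lower level in HDAC11-/- itself moves a probe set towards the dimmer ones. Of the 55 probe sets that were not their gene's brightest, 2 rose (3.64%, against 4.76% of all such probe sets) and 9 fell (16.4%, against 6.25%). When any probe set could call a gene, 3 of 58 genes rose (5.17%, against 5.31% of all genes) and 12 fell (20.7%, against 6.66%). These shares moved with the scale, since a scale set on 12 reference genes shifted every log2 fold change by -0.11 and gave 3 higher and 18 lower probe sets, and one set on bacterial controls gave 5 and 11. Over all probe sets, 43.5% of calls were higher on the deposited scale, 25.9% on the reference gene scale and 48.2% on the bacterial scale.

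**Figure D1:**
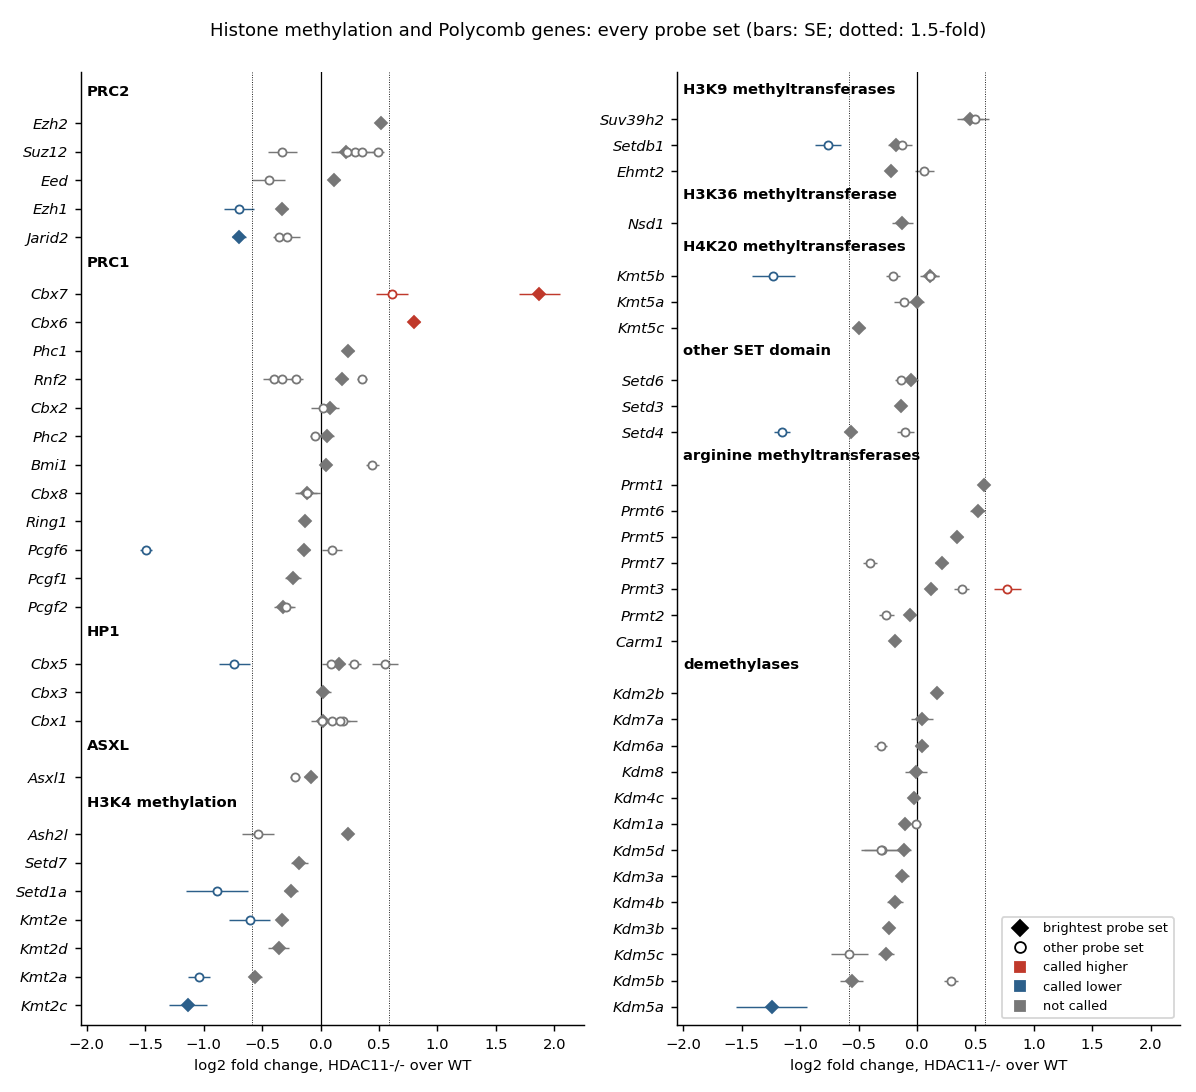
Log2 fold change (HDAC11-/- over WT, x axis) of all 113 probe sets of the 58 genes, grouped by role, with the standard error as a bar. Diamonds are the brightest probe set of a gene, circles its other probe sets, red those called higher and blue those called lower. The highest is Cbx7 at 1.87 and the lowest is Pcgf6 at -1.49, and all 8 probe sets of Kmt2a, Kmt2c, Kmt2d, Kmt2e and Setd1a lie below 0.

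The catalytic subunits of PRC2 moved in opposite directions. Ezh2, the more active H3K27 methyltransferase, measured 10.71, 10.68 and 10.76 on the HDAC11-/- arrays, against 10.21, 10.19 and 10.21 on the WT arrays. The groups did not overlap, and the log2 fold change of 0.51 ± 0.04 (SE, n = 3 each) had an adjusted p of 0.000253 by limma but stayed under 1.5-fold. Ezh1, the less active form that predominates in resting cells, averaged 9.38 ± 0.05 in HDAC11-/- and 9.71 ± 0.05 in WT (SD, n = 3 each) by its brightest probe set, a log2 fold change of -0.33 ± 0.05 (adjusted p = 0.0023 by limma), also under 1.5-fold. Its dimmer probe set 1418290_a_at fell, at 6.31, 5.85 and 5.86 on the HDAC11-/- arrays and 6.76, 6.59 and 6.77 on the WT arrays (log2 fold change -0.70 ± 0.13, adjusted p = 0.00573 by limma). Both probe sets of Ezh1 thus read lower in HDAC11-/-, without overlap between the genotypes.

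The start regions of both genes are shown because the enzymes share a reaction but were measured in opposite directions. Each run holds 100 bases before the transcription start and 20 from it, from RefSeq on GRCm38.p6, minus strand, at chr6:47595011-47595130 for Ezh2 and chr11:101226444-101226563 for Ezh1. Capitals mark matches to 5 motifs searched on both strands, the E2F element (TTTGGCGC, TTTCGCGC, TTTCCCGC or TTTGCCGC), the CCAAT box (CCAAT), the GC box (GGGCGG), the AP-1 element (TGACTCA) and the CRE (TGACGTCA).
Ezh2: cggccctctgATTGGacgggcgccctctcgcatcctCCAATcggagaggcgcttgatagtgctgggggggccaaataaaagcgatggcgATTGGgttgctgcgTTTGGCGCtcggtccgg
Ezh1: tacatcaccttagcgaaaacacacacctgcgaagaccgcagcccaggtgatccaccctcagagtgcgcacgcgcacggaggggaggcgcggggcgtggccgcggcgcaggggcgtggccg
The Ezh2 window held 1 E2F element, starting 4 bases into the transcript, and 3 CCAAT boxes, which start at -90, -64 and -11 and read CCAAT or its complement ATTGG. None of the 5 motifs was found in the Ezh1 window, which says only that these letters are not in it. Among promoters of 300 bases, the E2F element was in 2.26% of all 32851 and in 6.15% of the 65 that matched 49 of the genes, namely those of Cbx3, Ezh2, Kmt5c and Suz12. Of these 4 genes, Kmt5c was lower in HDAC11-/- past the adjusted p and Ezh2 was higher. The brightest Suz12 probe set and the 1 probe set annotated to Cbx3 alone did not pass. The CCAAT box was in 43.1% of the 65 (37.4% of all) and the GC box in 72.3% (35.7% of all). A match to these letters is a description of the sequence and not a binding site.

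Jarid2, a substoichiometric subunit that helps bring PRC2 to chromatin, fell by its brightest probe set. It measured 10.13, 10.04 and 10.03 on the HDAC11-/- arrays, against 10.86, 10.73 and 10.69 on the WT arrays, a 1.62-fold lower level (log2 fold change -0.70 ± 0.06, adjusted p = 0.000279 by limma). Its other probe sets had log2 fold changes of -0.35 (adjusted p = 0.00267) and -0.29 (adjusted p = 0.0755 by limma). All 3 read in the same direction, though only the brightest reached 1.5-fold. Eed, which binds the H3K27 mark and stimulates the enzyme, averaged 10.73 ± 0.06 in HDAC11-/- and 10.61 ± 0.02 in WT (SD, n = 3 each; log2 fold change 0.12, adjusted p = 0.0876 by limma), and its second probe set lay within the bacterial control range. Suz12, the scaffold of the complex, averaged 10.84 ± 0.12 in HDAC11-/- and 10.63 ± 0.09 in WT by its brightest probe set (SD, n = 3 each; log2 fold change 0.21, adjusted p = 0.0669 by limma). The 6 Suz12 probe sets ran from -0.33 to 0.49 on the log2 fold change scale, and the 1 that passed the adjusted p, at 0.49, was within the bacterial control range in WT. Over PRC2 as a whole 0 of 14 probe sets rose and 2 fell by limma, against 3.87% and 5.03% of all probe sets, and 2 were higher and 5 lower by the adjusted p alone, against 23.2% and 22.4% of all.

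The strongest rise among all the regulators was in Cbx7, a chromodomain subunit of PRC1 that reads methylated H3K27. Its brightest probe set measured 7.14, 7.39 and 7.28 on the HDAC11-/- arrays, against 5.68, 5.53 and 4.99 on the WT arrays, without overlap. The measured means differed 3.66-fold (log2 fold change 1.87 ± 0.18, adjusted p = 0.000352 by limma), but the WT values were close to background, with only 2 of the 3 WT arrays above the highest bacterial control. The second probe set, 1449713_at, was within the bacterial control range on the WT arrays, so that only a bound of at least 1.08-fold higher can be given (adjusted p = 0.012 by limma), and its measured means were 5.51 in HDAC11-/- and 4.90 in WT. Cbx6, another chromodomain subunit of PRC1, has 1 probe set, which measured 9.70, 9.76 and 9.70 on the HDAC11-/- arrays and 8.92, 8.96 and 8.87 on the WT arrays. It rose 1.74-fold (log2 fold change 0.80 ± 0.05, adjusted p = 5.89e-05 by limma). Cbx2 and Cbx8, the other chromodomain subunits measured, had brightest log2 fold changes of 0.08 and -0.12 (adjusted p = 0.393 and 0.305 by limma).

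Cbx6 and Cbx7 lie near each other on chromosome 15, with 2 annotated genes between them in RefSeq. One of these, Apobec3, a cytidine deaminase that restricts retroviruses, had a log2 fold change of 2.40 ± 0.08 (adjusted p = 5.49e-06 by limma), and the other, a non-coding RNA, was not analysed here. The nearest measured genes outside the stretch were Dnal4 on the Cbx6 side, at -0.28 (adjusted p = 0.0214), and Pdgfb on the Cbx7 side, at 0.21 (adjusted p = 0.0363 by limma) by its brightest probe set. Neither reached 1.5-fold, whereas all 3 measured genes from Cbx6 to Cbx7 did. The stretch was looked at after these values were seen, and its part in the rise of either gene was not tested.

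**Figure D2:**
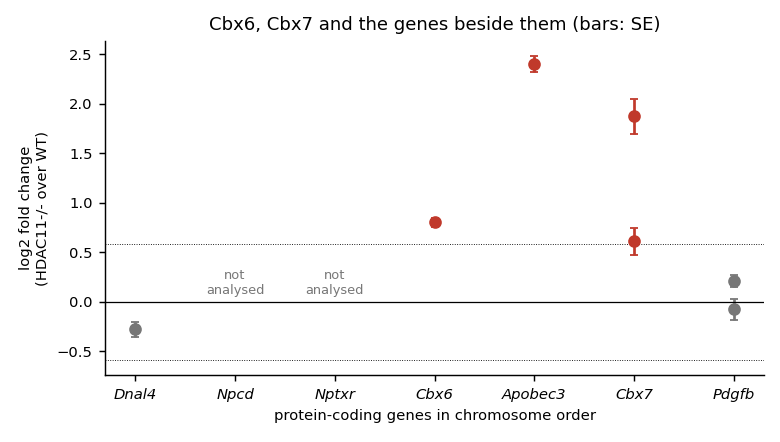
Log2 fold change (HDAC11-/- over WT, y axis) with its standard error for the protein-coding genes around Cbx6 and Cbx7, in chromosome order. Red points are called higher, dotted lines mark 1.5-fold, and a gene with several points has several probe sets. Cbx6 (0.80), Apobec3 (2.40) and Cbx7 (1.87 and 0.61) lie above the upper line and Dnal4 and Pdgfb between the lines.

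The catalytic core of PRC1 was close to level. Rnf2, the main ubiquitin ligase for H2A, averaged 10.69 ± 0.07 in HDAC11-/- and 10.51 ± 0.04 in WT by its brightest probe set (SD, n = 3 each; log2 fold change 0.18, adjusted p = 0.0338 by limma). A second bright probe set was at 0.36 (adjusted p = 0.000905) and 2 dim ones were lower past the adjusted p, at -0.21 and -0.40 (adjusted p = 0.0259 and 0.0127 by limma), so the probe sets of Rnf2 do not give 1 direction. Ring1, its paralog, measured 8.98, 8.99 and 9.02 on the HDAC11-/- arrays and 9.14, 9.15 and 9.09 on the WT arrays (log2 fold change -0.13, adjusted p = 0.0463 by limma). Bmi1, the PCGF partner that represses the Cdkn2a locus, had log2 fold changes of 0.05 (adjusted p = 0.394) at its brightest probe set and 0.44 (adjusted p = 0.00105 by limma) at the other, and the first was -0.06 on the reference gene scale. The scaffold genes Phc1 and Phc2, whose products polymerise PRC1, were at 0.23 (adjusted p = 0.0127) and 0.05 (adjusted p = 0.537 by limma).

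Pcgf6, the PCGF partner of a PRC1 form that acts at germ-line genes, gave the lowest fold change of the set, but at 1 of its 3 probe sets. Probe set 1432108_at measured 6.21, 6.16 and 6.20 on the HDAC11-/- arrays, against 7.69, 7.62 and 7.74 on the WT arrays. It fell 2.82-fold with the smallest adjusted p among the regulators (log2 fold change -1.49 ± 0.05, adjusted p = 5.97e-06 by limma). The brightest probe set of Pcgf6, at 9.96 in HDAC11-/- and 10.10 in WT, had a log2 fold change of -0.14 (adjusted p = 0.0389), and the third 0.10 (adjusted p = 0.373 by limma). The difference between the first and the brightest was itself past the test, at 1.36 ± 0.07 (SE; adjusted p = 3.57e-05 over all pairs of probe sets, limma). Over PRC1 as a whole 3 of 24 probe sets rose and 1 fell, against 3.87% and 5.03% of all probe sets, and 7 were higher and 8 lower by the adjusted p alone, against 23.2% and 22.4% of all.

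The HP1 proteins, which read methylated H3K9, changed little at their brightest probe sets. Log2 fold changes were 0.16 for Cbx5 (HP1 alpha; adjusted p = 0.0331), 0.02 for Cbx1 (HP1 beta; adjusted p = 0.785) and 0.02 for Cbx3 (HP1 gamma; adjusted p = 0.787 by limma). The Cbx3 probe set averaged 7.33 in HDAC11-/- and 7.31 in WT. Brighter probe sets that Cbx3 shares with a processed copy were higher past the adjusted p and are given at the end. Of 5 Cbx5 probe sets, 2 dimmer ones were also higher past the adjusted p, at 0.29 and 0.55. One called lower, 1421933_at, measured 4.51, 4.25 and 4.43 on the HDAC11-/- arrays and 5.42, 5.04 and 4.95 on the WT arrays. It lay within the bacterial control range in both genotypes, so no fold is given, although it counts among the 12 probe sets called lower. Asxl1, a cofactor of the BAP1 enzyme that removes H2A ubiquitin, had a log2 fold change of -0.08 (adjusted p = 0.251 by limma) at its brightest probe set.

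The KMT2 and SETD1 genes read lower in HDAC11-/-. The wider group counted for H3K4 methylation, with Ash2l and Setd7, had 9 of 11 probe sets lower and 1 higher past the adjusted p. Over the whole array 22.4% of probe sets were lower and 23.2% higher by this measure. All 8 probe sets of Kmt2a, Kmt2c, Kmt2d, Kmt2e and Setd1a were lower in HDAC11-/- past the adjusted p. Their median log2 fold change was -0.58 (-0.03 over all probe sets with 1 gene symbol), and 4 of them fell past 1.5-fold (5.03% of all probe sets did). Kmt2a (MLL1), which maintains Hox gene expression, was called by its dimmer probe set 1427283_at, at 9.55, 9.32 and 9.29 on the HDAC11-/- arrays and 10.55, 10.37 and 10.36 on the WT arrays. This was a 2.05-fold lower level (log2 fold change -1.04 ± 0.09, adjusted p = 0.000271 by limma). The Kmt2a probe set that was brightest over all 6 arrays was at 9.79 in HDAC11-/- and 10.35 in WT. Its log2 fold change was -0.56 ± 0.06 (adjusted p = 0.000437 by limma), just under 1.5-fold. On the WT arrays alone 1427283_at was the brighter, with a mean of 10.43. Both probe sets of Kmt2a thus separated the genotypes without overlap.

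Kmt2c (MLL3), which monomethylates H3K4 at enhancers, has 1 probe set, at 8.60, 8.24 and 8.06 on the HDAC11-/- arrays and 9.69, 9.30 and 9.31 on the WT arrays. It fell 2.19-fold (log2 fold change -1.13 ± 0.16, adjusted p = 0.00187 by limma). Its paralog Kmt2d (MLL4) averaged 6.53 ± 0.09 in HDAC11-/- and 6.89 ± 0.16 in WT (SD, n = 3 each; log2 fold change -0.36, adjusted p = 0.0185 by limma), under 1.5-fold. The paralogs thus read in the same direction, with the larger difference at Kmt2c.

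Kmt2e (MLL5), a family member that reads H3K4 methylation, averaged 11.24 ± 0.04 in HDAC11-/- and 11.57 ± 0.03 in WT at its brightest probe set (SD, n = 3 each; log2 fold change -0.33, adjusted p = 0.0018 by limma). The called Kmt2e probe set 1427236_a_at stood at 10.05, 9.71 and 9.58 on the HDAC11-/- arrays and 10.68, 10.39 and 10.10 on the WT arrays (log2 fold change -0.61 ± 0.17, adjusted p = 0.0282 by limma). Here the lowest WT array was only slightly above the highest HDAC11-/- array, and the call was lost without any of 4 arrays, with the value nearest to 0, -0.46, without WT array 1. Setd1a, the enzyme of a broad H3K4 trimethylating complex, was at 5.84, 5.19 and 5.43 in HDAC11-/- and at 6.91, 6.24 and 5.97 in WT by its called probe set 1450336_at (log2 fold change -0.88 ± 0.27, adjusted p = 0.0335 by limma). Its brightest probe set was at -0.25 (adjusted p = 0.0136), and the call was lost without any of the same 4 arrays, with an adjusted p of 0.0530 to 0.101 by limma.

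Ash2l, a core subunit of H3K4 methyltransferase complexes, did not follow the KMT2 and SETD1 genes at its brightest probe set. That probe set averaged 9.29 ± 0.02 in HDAC11-/- and 9.06 ± 0.06 in WT (SD, n = 3 each; log2 fold change 0.23, adjusted p = 0.00881), whereas the dimmer 1420615_at averaged 6.92 ± 0.15 in HDAC11-/- and 7.46 ± 0.25 in WT (log2 fold change -0.54, adjusted p = 0.0183 by limma). The difference between them was past the test, at 0.77 (adjusted p = 0.00389 over all pairs, limma). Setd7, which can monomethylate H3K4, lay within the bacterial control range in both genotypes.

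**Figure D3:**
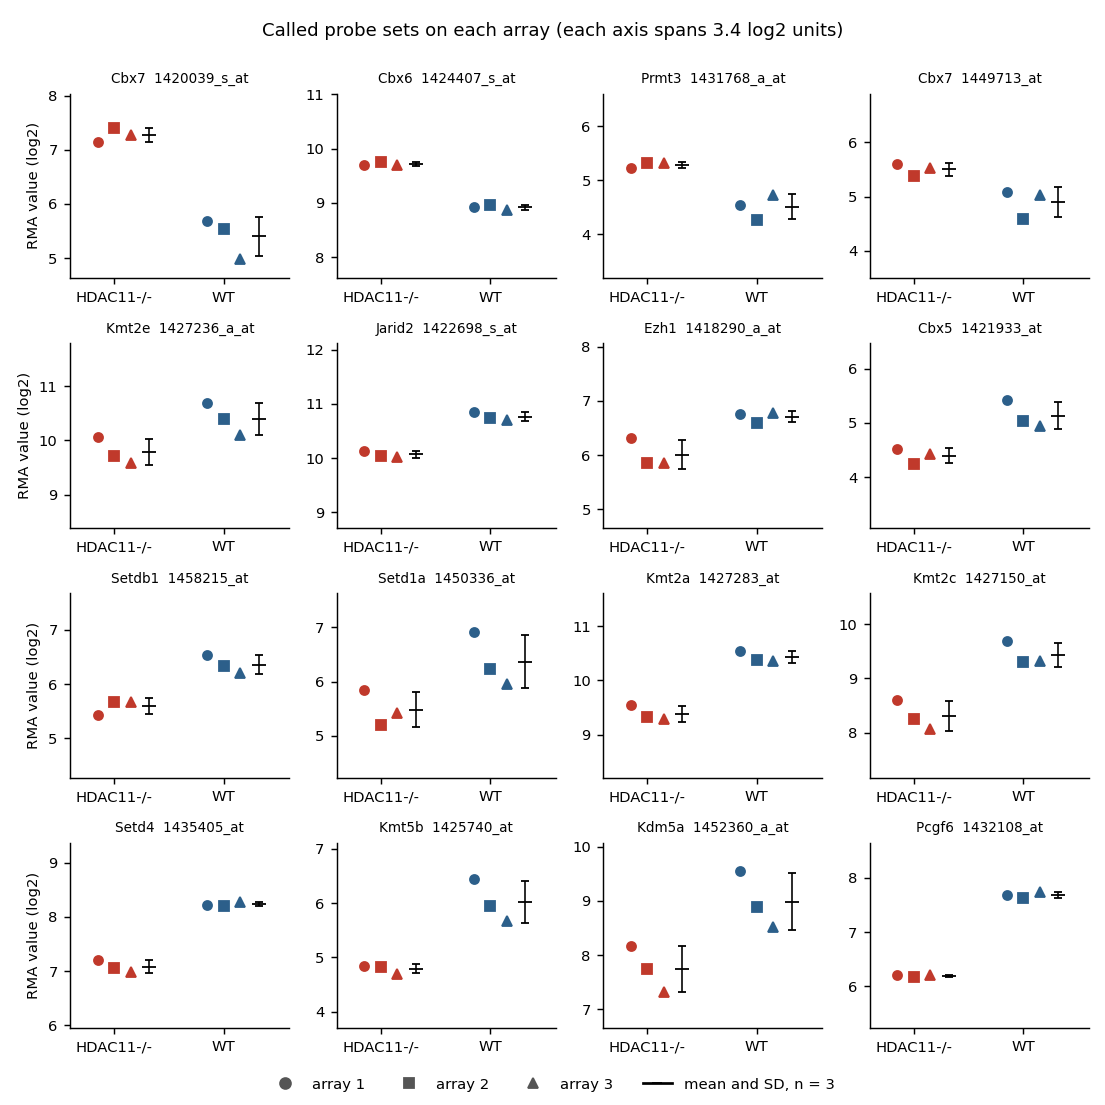
RMA value (log2, y axis) of the 16 called probe sets on each of the 3 HDAC11-/- arrays (red, left) and 3 WT arrays (blue, right), with the mean and SD beside them. Marker shapes give the array number and each axis spans the same range. No panel has overlapping groups, which is likely for probe sets selected by the call. Cbx7 is at 7.14 to 7.39 in HDAC11-/- and 4.99 to 5.68 in WT, and Pcgf6 at 6.16 to 6.21 in HDAC11-/- and 7.62 to 7.74 in WT.

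Enzymes of repressive lysine marks gave calls at single dim probe sets only. Setdb1, which trimethylates H3K9 at retroelements, averaged 8.43 ± 0.01 in HDAC11-/- and 8.61 ± 0.12 in WT at its brightest probe set (SD, n = 3 each; log2 fold change -0.18, adjusted p = 0.063 by limma). Its probe set 1458215_at fell, at 5.42, 5.68 and 5.67 on the HDAC11-/- arrays and 6.54, 6.33 and 6.19 on the WT arrays (log2 fold change -0.76 ± 0.11, adjusted p = 0.00184 by limma). Ehmt2 (G9a), which dimethylates H3K9, was at -0.23 (adjusted p = 0.00884 by limma), and the brightest probe set of Suv39h2, which trimethylates H3K9, was within the bacterial control range in WT.

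Of the H4K20 enzymes, Kmt5b and Kmt5c extend the mark beyond a single methyl group. They were measured by 4 and 1 probe sets, and the difference between the genes was not tested. Kmt5c averaged 8.66 ± 0.06 in HDAC11-/- and 9.16 ± 0.06 in WT (SD, n = 3 each; log2 fold change -0.50, adjusted p = 0.000711), and Kmt5b 9.62 ± 0.02 in HDAC11-/- and 9.51 ± 0.16 in WT (log2 fold change 0.11, adjusted p = 0.307 by limma) at its brightest probe set. The next brightest, 1434999_at, was lower, at 8.83 in HDAC11-/- and 9.04 in WT (log2 fold change -0.21, adjusted p = 0.0276 by limma). A dim Kmt5b probe set, 1425740_at, measured 4.84, 4.83 and 4.70 on the HDAC11-/- arrays and 6.44, 5.94 and 5.68 on the WT arrays. Its HDAC11-/- values were within the bacterial control range, and it was at least 1.84-fold lower (adjusted p = 0.00207 by limma). Kmt5a, which adds the first methyl group, averaged 9.36 in both genotypes. Nsd1, the 1 gene grouped as an H3K36 methyltransferase among the regulators counted here, lay within the bacterial control range in both.

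Setd4, a less studied SET domain protein, was among the more strongly lowered genes, at 1 of its 3 probe sets. Probe set 1435405_at measured 7.21, 7.06 and 6.98 on the HDAC11-/- arrays and 8.23, 8.21 and 8.27 on the WT arrays. It fell 2.22-fold (log2 fold change -1.15 ± 0.07, adjusted p = 5.41e-05 by limma). The brightest probe set was at -0.57 ± 0.05 (adjusted p = 0.000323), just under 1.5-fold, and the third at -0.10 (adjusted p = 0.29 by limma). Setd3, an actin histidine methyltransferase, and Setd6, which methylates the NF-kappaB subunit RelA, were at -0.14 and -0.05 (adjusted p = 0.0531 and 0.484 by limma).

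The arginine methyltransferases had a median log2 fold change of 0.21 over 7 genes by the brightest probe set (-0.04 over all genes). Of these, 4 were higher past the adjusted p (22.9% of all genes were), 1 was lower (23.2% of all genes were) and 2 did not pass, and none was called by its brightest probe set. Prmt1, which makes most asymmetric dimethylarginine, measured 10.75, 10.70 and 10.70 on the HDAC11-/- arrays and 10.11, 10.17 and 10.14 on the WT arrays. The groups were well apart, but the log2 fold change of 0.57 ± 0.04 (adjusted p = 0.000164 by limma) was just under 1.5-fold. Prmt6, which methylates H3R2, was at 0.52 (adjusted p = 0.00106), Prmt5, the main source of symmetric dimethylarginine, at 0.35 (adjusted p = 0.00203), and Carm1, a coactivator that methylates H3R17, at -0.19 (adjusted p = 0.0137 by limma).

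Prmt3, which methylates a ribosomal protein, had a log2 fold change of 0.12 (adjusted p = 0.102 by limma) at its brightest probe set. It was called higher at 1431768_a_at, with 5.22, 5.33 and 5.31 on the HDAC11-/- arrays and 4.54, 4.27 and 4.73 on the WT arrays (adjusted p = 0.00205 by limma). The WT values lay within the bacterial control range and only 2 of the HDAC11-/- arrays exceeded it, so no fold is given. Prmt7, which makes monomethylarginine, was at 0.21 (adjusted p = 0.0182) at its brightest probe set and at -0.40 (adjusted p = 0.00233 by limma) at a dimmer one.

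Among 13 lysine demethylases, 1 was called, and it was lower. Of all genes, 3.46% were called higher and 3.72% lower by the brightest probe set. Kdm5a, which removes H3K4 methylation, measured 8.17, 7.73 and 7.31 on the HDAC11-/- arrays and 9.55, 8.89 and 8.51 on the WT arrays at its 1 probe set. It fell 2.37-fold (log2 fold change -1.24 ± 0.31, adjusted p = 0.016 by limma), with the largest standard error of the called probe sets, and with an intensity trend and a robust prior in limma the adjusted p was 0.057. Its paralog Kdm5b gave opposite directions, with 8.45, 8.27 and 8.24 on the HDAC11-/- arrays and 9.08, 8.78 and 8.79 on the WT arrays at the brightest probe set (log2 fold change -0.56, adjusted p = 0.0044), but a mean of 7.95 in HDAC11-/- and 7.66 in WT at the other (log2 fold change 0.29, adjusted p = 0.00911 by limma). Neither probe set of Kdm5b had overlapping groups. Kdm5c was lower at both of its probe sets past the adjusted p, at -0.26 and, where 1 of the HDAC11-/- arrays exceeded the bacterial controls, at -0.58, without reaching 1.5-fold, and the Y-linked Kdm5d averaged 8.53 in HDAC11-/- and 8.64 in WT, so it was expressed on all arrays.

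The other demethylases had differences under 1.5-fold. Kdm1a (LSD1), which removes H3K4 methylation as part of the CoREST complex, was at -0.10 (adjusted p = 0.116) at its brightest probe set, and Kdm6a (UTX), which removes H3K27 methylation, at 0.04 (adjusted p = 0.613) at its brightest and at -0.31 (adjusted p = 0.00522 by limma) at its other probe set. Kdm2b, which recruits a PRC1 form to CpG islands, was the highest, at 0.17 (adjusted p = 0.0217), and Kdm3b, an H3K9 demethylase, was at -0.24 (adjusted p = 0.00389 by limma). By the adjusted p alone, 1 of the 13 genes was higher, 4 were lower and 8 did not pass at the brightest probe set (22.9% and 23.2% of all genes were higher and lower).

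Disagreement between probe sets of the same gene was common. In each of the 34 genes with more than 1 probe set, the brightest was compared with each other probe set on the same array, over 55 pairs. In 8 genes (23.5%, against 15.2% of all genes with more than 1 probe set) a pair differed by at least 1.5-fold between genotypes at an adjusted p under 0.05 by limma, and pair by pair this was 14.5%, against 11.3% of all pairs. These were Ash2l, Cbx5, Cbx7, Kdm5b, Kmt5b, Pcgf6, Prmt3 and Prmt7. In 4 of them (Cbx5, Cbx7, Kmt5b and Prmt3) the dimmer probe set lay within the bacterial control range in at least 1 genotype. The size of the difference in these is not a measured fold. A filter kept pairs whose probe sets each exceeded the controls on all arrays of at least 1 genotype, and the count was then 6 genes. This filter can keep a probe set that lay within the control range in the other genotype, as those of Cbx7 and Kmt5b did. The brightest probe set had the higher fold change in 6 of the 8, a count that was not made over all pairs. In 5 genes (14.7%, against 6.64% of all genes with more than 1 probe set) a pair had opposite signs, each past the adjusted p, and the fold changes of Ash2l, Kdm5b and Prmt7 given above are examples. Of the 12 genes with several probe sets and a called one, Cbx7 was the 1 whose probe sets were all called in the same direction. The share of such genes over the whole array was not counted. By the adjusted p alone, all probe sets pointed the same way past the test in 8 of the 34 genes (23.5%, against 18.4%), and in 8 none passed (23.5%, against 27.5%). Taking any probe set of a gene as its call, 10 of these 34 genes fell (29.4%, against 11.3% of all genes with more than 1 probe set) and 2 rose (5.88%, against 8.8%).

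**Figure D4:**
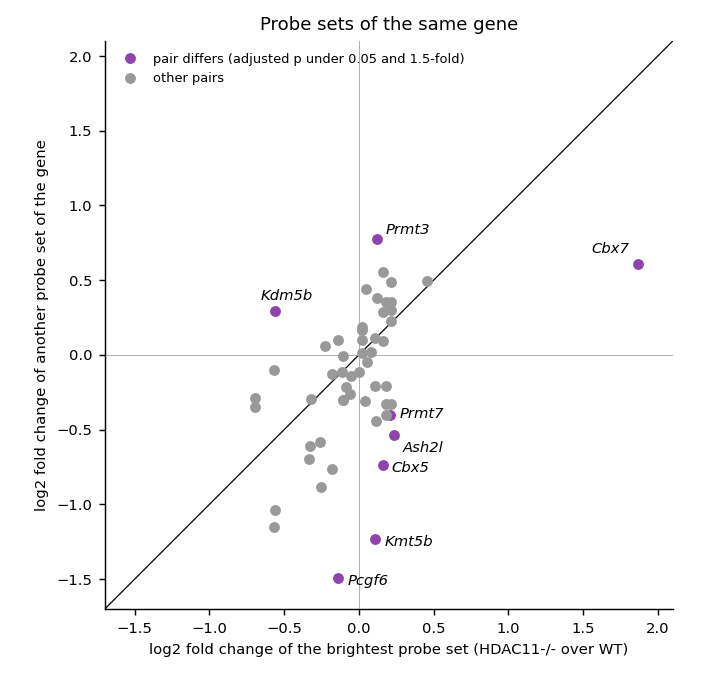
Log2 fold change (HDAC11-/- over WT) of the brightest probe set of a gene (x axis) and of each of its other probe sets (y axis), over 55 pairs in 34 genes. Purple points are the 8 pairs that differ by limma, and the line is where both would be equal. Kdm5b (-0.56 and 0.29) and Ash2l (0.23 and -0.54) lie in quadrants of opposite sign, and Cbx7 (1.87 and 0.61) and Pcgf6 (-0.14 and -1.49) lie farthest along the axes.

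The called probe sets also shared a pattern between arrays. The array numbered 1 gave the highest of the 3 values in both genotypes for 8 of the 12 probe sets called lower (66.7%), against 13.4% of all probe sets tested, a count made after the values were seen. In both genotypes Kdm5a, Kmt2a, Kmt2e, Setd1a and Kdm5b (brightest probe set) had their highest value on array 1. For the Actb gene, probe sets at the 3′ end exceeded those at the 5′ end by 0.42 to 0.44 on HDAC11-/- arrays and by 0.47 to 0.53 on WT arrays. For Gapdh the excess was 0.00 to 0.04 on HDAC11-/- arrays and 0.09 on WT arrays, so that both genes separated the genotypes. For Tfrc the excess was 1.51 to 2.06 on HDAC11-/- arrays and 1.52 to 1.74 on WT arrays, with overlap. The part of RNA quality in the lower calls was not tested.

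Partner subunits of these complexes, listed together with other readers and enzymes of histone methylation such as Uhrf1, Smyd2 and Phf8, were mostly close to level. Of the 36 genes on this list, 30 were measured. By the brightest probe set 1 was called higher and 1 lower (3.46% and 3.72% of all genes). By the adjusted p alone 10 were higher and 3 lower (22.9% and 23.2% of all genes), with a median log2 fold change of 0.11. By any probe set 2 genes were called higher and 3 lower (5.31% and 6.66% of all genes). Aebp2, a PRC2 subunit, was called lower at a dimmer probe set, at -1.10 (adjusted p = 0.000556 by limma). Its brightest probe set went the other way, at 0.16 (adjusted p = 0.0286 by limma). Rbbp4, also a PRC2 subunit, was called higher at a dimmer probe set, at 0.66 (adjusted p = 0.000176 by limma). Its brightest probe set was at 0.14 (adjusted p = 0.0317), and that of its paralog Rbbp7 at 0.31 (adjusted p = 0.00273 by limma). The 1 called higher by its brightest probe set was Uhrf1, which reads H3K9 methylation and hemimethylated DNA at replication. It was at 9.34 in HDAC11-/- and 7.80 in WT (log2 fold change 1.54, adjusted p = 4.3e-06 by limma). The 1 called lower by its brightest probe set was Phf1, a Polycomb-like PRC2 subunit. It was at 9.31 in HDAC11-/- and 10.08 in WT (log2 fold change -0.77, adjusted p = 7.3e-05 by limma). Cxxc1, which brings SETD1 complexes to CpG islands, was at -0.47 (adjusted p = 0.000513), and Dpy30, a subunit shared by all the H3K4 complexes, at 0.49 (adjusted p = 0.00142 by limma). Wdr5, another shared subunit, was at -0.08 (adjusted p = 0.143) at its brightest probe set and at 0.52 (adjusted p = 0.00187 by limma) at the other.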

How the data were processed

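RNA of CD4+CD25+ Tregs was amplified, labelled with biotin and hybridised to Affymetrix Mouse430A arrays. The authors normalized the arrays by RMA in MAYDAY and deposited the resulting log2 values, which were used as given. Raw probe values were not used. Of 22671 probe sets, 45 controls were left out. Symbols came from the platform annotation (20380 probe sets with 1 symbol, 691 with several and 1555 with none here).

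All 22626 probe sets were fitted in R 4.3.3 on a single genotype term (limma 3.58.1, lmFit with eBayes), with Benjamini-Hochberg adjustment across the whole set. The probe set that was brightest on average over the 6 arrays stood for its gene. For genes with more than 1 probe set, the difference between the brightest and each other probe set on each array was fitted the same way over 7987 pairs. A probe set at or below the highest of 27 bacterial controls on all arrays of a genotype has only a bound there, computed against that control where it is higher. The control averaged 5.14 on HDAC11-/- and 5.39 on WT arrays. Precision is limited by the number of arrays. Between arrays of a genotype the median SD was 0.066 in HDAC11-/- and 0.090 in WT. The fits were tested on simulated data.

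Alternatives were a replicate block, array weights, a trended and robust prior, 2 other scales, a filter on dim probe sets, SAM with all 20 labelings, a 2-fold threshold, leaving out each array, and representing a gene by other probe sets. Members named with full values are every gene with a called probe set or with probe sets that differ, and the core Polycomb genes Ezh1, Ezh2, Eed, Suz12, Jarid2, Ring1, Rnf2 and Bmi1, with the largest values of a role group and members picked for their role after their values were seen. The members and lists were chosen with earlier results of these data known.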

Additional observations from a re-analysis of the deposited data

How the results depend on the processing

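Counts of calls moved with the scale, the filter and the threshold. With only the brighter probe sets, 1 probe set was called higher and 7 lower, and 1 gene was called higher. At 2-fold, 1 probe set was called higher and 6 lower. On the reference gene scale 7 genes were called lower by the brightest probe set, against 3 on the deposited scale, and with any probe set of a gene 12 were. When probe sets whose suffix marks shared transcripts were set aside, 1 gene was called higher. Leaving out each array in turn gave 3 to 5 probe sets called higher and 10 to 16 lower, and 2 genes called higher and 3 to 5 lower, with 5 without HDAC11-/- array 1. The brightest Bmi1 probe set was at -0.058 on the reference gene scale, against 0.05, neither past the adjusted p. For these changes the cause was not tested.

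Of the 16 called probe sets, 12 kept their call in every alternative run for single probe sets. The filter on dim probe sets left out 8 of the 16, so it did not test their calls. The 2-fold threshold was not among these alternatives. The others were Kmt2e 1427236_a_at, lost in 6, Setd1a 1450336_at, lost in 5, Cbx7 1449713_at, lost in 3 including without WT array 2 (0.45), and Kdm5a, lost in 1. Array numbers are shared by the genotypes in the titles. The deviations of same-numbered arrays correlated at 0.23, -0.02 and 0.16, and those of differently numbered arrays at -0.21 to 0.06. The main fit did not take the numbers as pairs, and whether same-numbered arrays shared a step of the work was not tested. With the replicate number as a block, 4 probe sets were called higher and 12 lower, and 9 genes had probe sets that differ, against 8. SAM gave 4 and 12. The 3 arrays in each group limit the precision, and 13 regulator probe sets did not exceed the bacterial controls on any array.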

Other observations

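A further 4 probe sets are annotated to Cbx3 or its processed copy Cbx3-ps5 and name more than 1 gene, so they are not among the regulators counted above. Cbx3 encodes HP1 gamma, and its transcripts cannot be told from those of the copy on these probe sets. The brighter ones averaged 12.24 (1416884_at), 9.27 (1439421_x_at) and 12.46 (1448504_a_at) in HDAC11-/-. The probe set annotated to Cbx3 alone averaged 7.33 there. Their log2 fold changes, in the same order, were 0.30, 0.29 and 0.19, each past the adjusted p of limma and each under 1.5-fold. The dimmest, 1454305_at, averaged 3.93 in HDAC11-/- and 4.99 in WT (log2 fold change -1.06, adjusted p = 0.00389 by limma), and was no brighter than bacterial controls in HDAC11-/-.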
